A study of Homo sapiens with 8 samples.

Results

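The imatinib-resistant population of KCL-22 cells was compared with the vehicle population, with 1 RNA library on each side. KCL-22 is a human line from chronic myeloid leukemia in blast crisis, and it carries the BCR-ABL fusion kinase. All cells of the series carried ClonTracer barcodes, a library of DNA tags that marks cell lineages. The imatinib population had grown for 27 days in imatinib at 2.5 µM, and the vehicle population had been kept for 7 days in 0.1% DMSO. Drug and time in culture differ together between these libraries and cannot be told apart. Members of the comparison are the entries that reached 5 FPKM in whichever of the 2 libraries was higher, 9279 of 31402 entries in the table. FPKM is the number of sequenced fragments scaled to the transcript's length and to the library's mapped fragments. The other 6 libraries of the series are used as a description only. They are populations grown out in nilotinib (0.3 µM, 27 days) or GNF-2 (2.5 µM, 21 days) and 4 expanded single clones. Clone 3 came from imatinib-resistant cells, and Clones 1, 2 and 4 from GNF-2-resistant cells. By their labels Clones 1 and 2 are resistant to GNF-2, Clone 3 to imatinib and nilotinib, and Clone 4 to imatinib, nilotinib and GNF-2. Each population and clone is 1 library. With 1 library a side the comparison has no replicate check, so no p-value is given, and "higher" and "lower" describe these libraries only.

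BCR-ABL is an ABL tyrosine kinase made constantly active by its fusion to BCR. It signals through STAT5, which drives genes such as CISH, SOCS2 and PIM1, through the RAS and ERK pathway, which drives immediate early genes such as EGR1 and FOS, and through PI3 kinase and MYC. Imatinib occupies the catalytic site of ABL and shuts this signalling off in sensitive cells. Cells that go on growing in the drug may have restored the kinase's output, often by a mutation in ABL1, or replaced it, among other routes. RNA levels do not show which, and sequence changes in ABL1 were not analysed here.

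The imatinib library was the deeper of the pair. Depth was read from how finely the FPKM of 666 intronless genes is stepped, which put it at about 27100000 fragments in vehicle and 36100000 in the imatinib population. At an FPKM of 5, a transcript of 2 kilobases would then hold about 271 and 361 fragments. Blood lineage markers were checked as lists, and T cell markers summed to 32.4 FPKM in vehicle and 5.32 in the imatinib population, and neutrophil and monocyte markers to 59.6 and 28.96. The T cell sums were nearly all CD3D, at 32.0 and 5.23, and only 1 of 5 T cell markers reached 1 FPKM. Cathepsin G (CTSG), given below, made up most of the neutrophil and monocyte sum in vehicle and most of its difference between the libraries. The globin genes HBG1, HBA1, HBA2 and HBB were listed at 0 in both libraries, and fibroblast and epithelial markers were near 0, with summed FPKM of 0.901 and 0.520 for 5 fibroblast markers and 0.0593 and 0.119 for 4 epithelial markers. Mast cell and basophil markers summed to 913 in vehicle and 603 in the imatinib population, most of it histidine decarboxylase (HDC). MS4A2 and FCER1A, which encode the IgE receptor chains that define those cells, were at 0 in both.

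The promoters of 5 members of the groups described below are printed first, chosen because each holds the element of the factor its group is named for. Sequences run 5′ to 3′ on the gene's strand, from 250 bases before to 50 bases after the annotated start, and come from RefSeq on GRCh38.p14. Capitals mark matches to a motif on either strand. In IFI27 (chr14:94110486-94110785, plus strand), IFI44L (chr1:78620198-78620497, plus strand) and IFIH1 (chr2:162318635-162318934, minus strand) it is the interferon-stimulated response element, which is GAAA and GAAA separated by any 2 bases, and overlapping matches run together. In CISH (chr3:50611725-50612024, minus strand) it is the STAT element TTCNNNGAA. In EGR1 (chr5:138465229-138465528, plus strand) it is a pattern used here for the serum response element. That pattern is CC, any base, TAT, any 2 bases and GG, and forms of the element outside it were not counted.
IFI27: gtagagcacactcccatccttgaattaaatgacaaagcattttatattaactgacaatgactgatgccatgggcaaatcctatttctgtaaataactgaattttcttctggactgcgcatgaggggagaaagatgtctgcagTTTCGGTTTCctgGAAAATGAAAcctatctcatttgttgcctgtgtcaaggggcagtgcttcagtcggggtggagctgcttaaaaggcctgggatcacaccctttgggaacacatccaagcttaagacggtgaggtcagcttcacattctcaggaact
IFI44L: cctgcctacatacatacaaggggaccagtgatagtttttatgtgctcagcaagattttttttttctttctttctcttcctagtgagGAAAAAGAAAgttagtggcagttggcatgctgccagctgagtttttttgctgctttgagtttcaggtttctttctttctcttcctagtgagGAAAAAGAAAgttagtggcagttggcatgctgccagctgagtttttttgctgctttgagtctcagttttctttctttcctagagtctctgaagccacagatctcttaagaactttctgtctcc
IFIH1: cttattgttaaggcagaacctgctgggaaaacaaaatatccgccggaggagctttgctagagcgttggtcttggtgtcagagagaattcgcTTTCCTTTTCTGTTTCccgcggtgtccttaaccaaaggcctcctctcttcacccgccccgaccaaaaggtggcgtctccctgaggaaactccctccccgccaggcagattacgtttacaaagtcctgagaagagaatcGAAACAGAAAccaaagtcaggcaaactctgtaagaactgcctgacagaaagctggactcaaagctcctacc
CISH: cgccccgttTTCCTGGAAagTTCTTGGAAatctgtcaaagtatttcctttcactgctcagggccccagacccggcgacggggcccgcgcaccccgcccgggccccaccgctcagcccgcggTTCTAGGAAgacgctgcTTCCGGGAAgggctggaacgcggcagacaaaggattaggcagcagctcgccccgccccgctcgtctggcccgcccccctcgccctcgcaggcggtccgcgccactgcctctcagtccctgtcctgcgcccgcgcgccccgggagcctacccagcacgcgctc
EGR1: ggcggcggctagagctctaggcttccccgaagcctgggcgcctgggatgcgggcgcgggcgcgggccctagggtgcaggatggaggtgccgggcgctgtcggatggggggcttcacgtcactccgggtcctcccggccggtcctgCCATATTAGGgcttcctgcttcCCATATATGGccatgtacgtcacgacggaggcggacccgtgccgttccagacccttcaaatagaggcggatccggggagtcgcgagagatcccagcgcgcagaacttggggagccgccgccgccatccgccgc

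The response element was found in 27 of 36 interferon-induced genes with a promoter in the table (75%), against 3.57% of all 35116 promoter windows of the same length. Some genes have several windows, and by window the response element was in 32 of 50. The other elements were in few genes of their groups, so CISH and EGR1 are not typical of theirs. The STAT element was in 2 of 12 STAT5 targets (16.7%), by window in 2 of 17, and in 7.66% of all windows. The CISH window held it at 4 positions. The pattern used for the serum response element was in 3 of 29 ERK-driven genes (10.3%), by window in 3 of 41, and in 1.2% of all windows. The EGR1 window held it at 2 positions. A match is a description of the sequence and does not show that a factor was bound in these cells.

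Differences between the libraries were few and mostly small. On log2(FPKM + 1), 288 of 9279 members (3.1%) were at least 2-fold apart, 87 higher (0.938%) and 201 lower (2.17%) in the imatinib population. At 1.5-fold 792 were apart (8.54%), 322 higher (3.47%) and 470 lower (5.07%). At 3-fold the counts were 32 higher (0.345%) and 82 lower (0.884%), 1.23% in all, and at 4-fold 25 higher (0.269%) and 49 lower (0.528%), 0.797% in all. By any amount, 57.2% of members were higher and 42.8% lower, the median difference was 0.04 and the SD 0.45. Every count of list members higher or lower given below is to be read against those shares. The tail of large differences therefore lay on the lower side, while the middle of the distribution lay slightly on the higher side. HYLS1 was the member nearest the floor, at 5.002 in vehicle and 4.23 in the imatinib population, and FNIP2 lay just outside it at 4.997 and 2.70. A member with a mean under 5 FPKM passed the floor only because its libraries differ, so the counts were repeated with the floor set on the mean of the other 6 libraries, which gave 71 higher and 138 lower. The share lower by 2-fold was 3.85% in the fifth of genes with the shortest transcripts and 0.992% in the fifth with the longest.

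**Figure D1:**
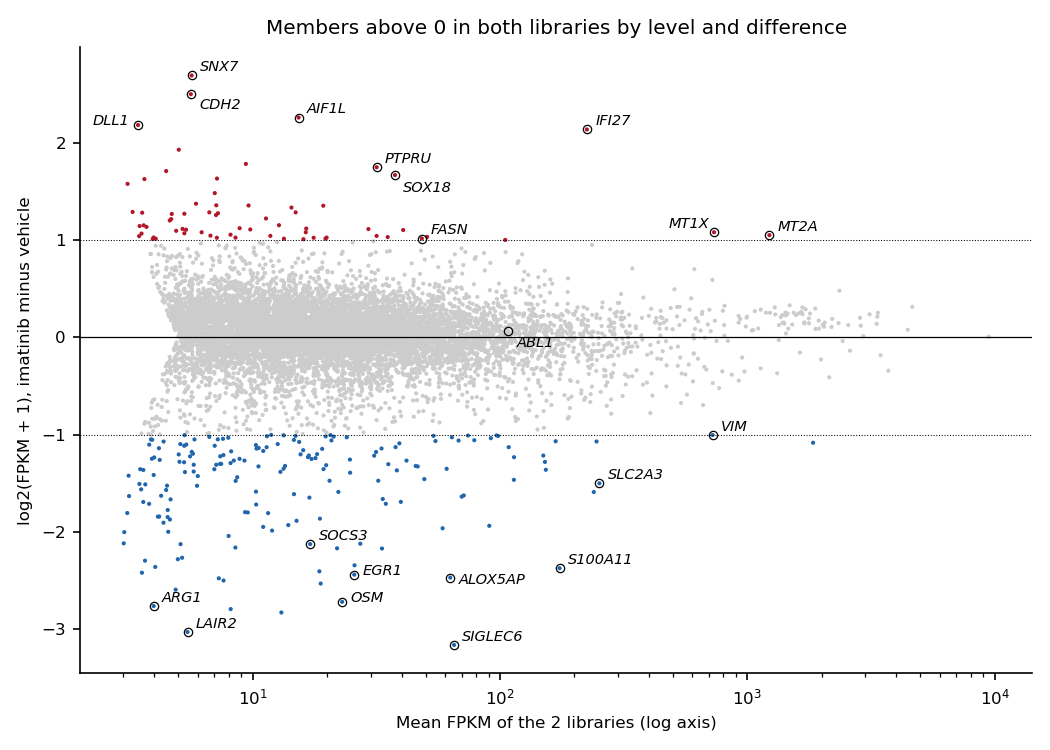
Members above 0 in both libraries, by the mean FPKM of the 2 libraries on a log axis (x) and by log2(FPKM + 1) in the imatinib population minus vehicle (y). Each point is a gene, red at least 2-fold higher, blue at least 2-fold lower, with dotted lines at 2-fold and circles on genes named in the text; the lower side holds 181 such genes and the higher side 67.

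The targeted kinase itself was present at like levels. ABL1 (chromosome 9, 133589267 to 133763062, GRCh37) was at 105.3 FPKM in vehicle and 110.5 in the imatinib population, with 65.3 to 96.8 in the other 6 libraries. BCR (chromosome 22, 23522551 to 23660224) had 87.5 and 102.4, with 58.8 to 105.7 in the others. These values sum the normal and the fused transcripts. Of 14 adaptors and regulators of the kinase, 5 were higher and 9 lower, with a median of -0.10. PTPN6, a phosphatase that dampens cytokine and kinase signalling, was 65.6 in vehicle and 25.6 in the imatinib population. CRKL, an adaptor that BCR-ABL phosphorylates, was 153 and 122. Both CRKL values lay above the range of the other 6 libraries, 54.1 to 89.5.

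STAT5 targets were lower in the imatinib population for 14 of 15 members, with a median of -0.70 and 6 members at least 2-fold lower, against 42.8% of all members lower and 2.17% at least 2-fold lower. The transducers differed less, and STAT5A was 17.1 in vehicle and 22.2 in the imatinib population, STAT5B 44.3 and 46.1. OSM, the gene of the cytokine oncostatin M and a direct STAT5 target, was 40.6 in vehicle and 5.33 in the imatinib population, 7.62-fold lower, against 6.19 to 17.0 in the other 6 libraries. SOCS3, a feedback inhibitor of cytokine receptors, was 28.4 and 5.74, against 6.84 to 19.3 elsewhere. For both genes the vehicle library was the highest of all 8 and the imatinib library the lowest. SOCS1, of the same inhibitor family, was 124 and 59.9, and CISH, whose promoter is printed above, was 147 and 83.0. PIM1, a survival kinase gene, was 132 and 64.8, and its relative PIM2 was 38.2 and 23.1. Cyclin D2 (CCND2) was 18.5 and 4.58, and ID1, an inhibitor of differentiation factors, was 26.7 and 11.5. MYC was the member of the list on the other side, at 127 in vehicle and 193 in the imatinib population. The vehicle value of MYC was the lowest of the 8 libraries, the others reaching 182 to 343.

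Genes driven by ERK were lower for 29 of 32 members, with a median of -0.60. Some passed the floor only through the vehicle library, where they were high. With the floor set on the other 6 libraries 24 of 27 were lower, with a median of -0.50. Among immediate early transcription factors 12 of 14 were lower, or 8 of 10 with that floor. EGR1, whose promoter holds the serum response element at 2 positions, was 44.1 in vehicle and 7.33 in the imatinib population, 6.02-fold lower. NR4A1 was 19.7 and 4.23, FOS 7.46 and 1.26, FOSB 6.04 and 1.18, and JUN 12.3 and 4.52. For EGR1, NR4A1, FOS and JUN the vehicle library was above all 6 other libraries, and the imatinib library lay within their range. The 2 members on the other side were FOSL1, at 60.6 and 73.0, and ATF3, at 9.54 and 11.1. Among feedback regulators 11 of 12 were lower. ZFP36, whose protein destroys cytokine messages, was 50.7 and 19.96, and the kinase phosphatase DUSP1 was 23.9 and 9.60. DUSP6, the phosphatase most specific to ERK, was 19.1 and 11.3, while DUSP7 was 34.9 and 46.7. Of the other targets, IER5 was 106 and 33.6, and PPP1R15A, a stress phosphatase subunit, was 333 and 158.

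**Figure D2:**
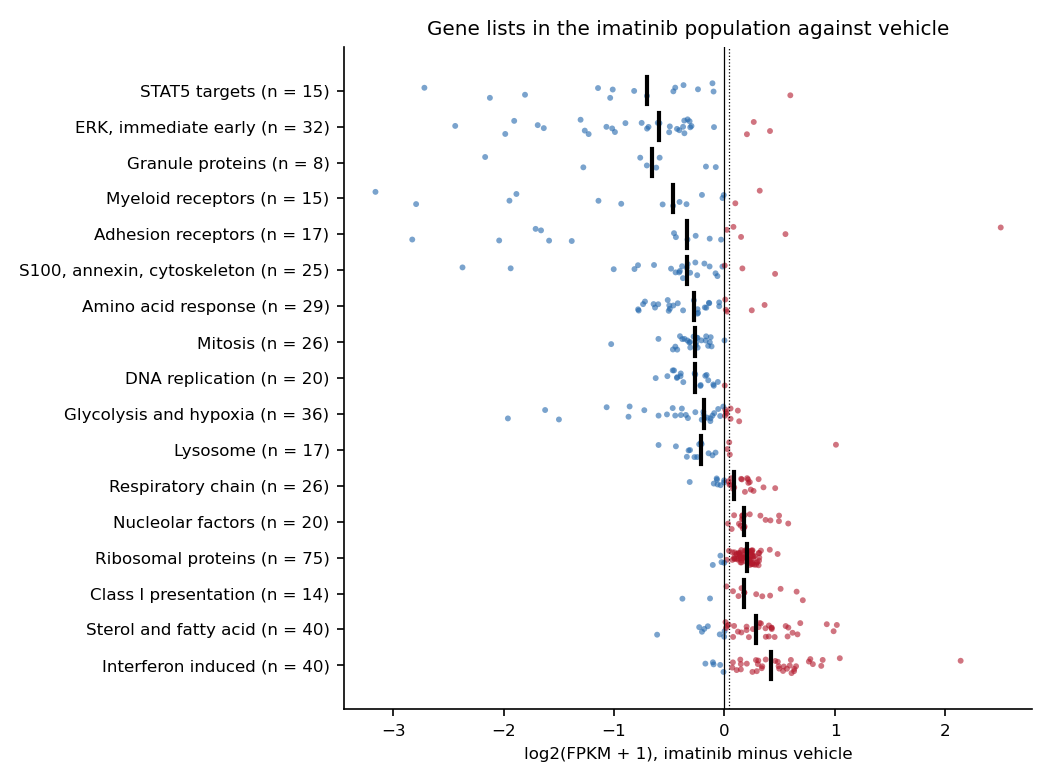
Members of 17 gene lists or list roles by log2(FPKM + 1) in the imatinib population minus vehicle. Each point is a gene, red above 0 and blue below, black bars are list medians, the solid line is 0 and the dotted line the median of all members, 0.04; STAT5 targets have the lowest median and interferon-induced genes the highest of those shown.

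Interferon-induced genes were higher for 35 of 40 members, with a median of 0.42. These genes encode antiviral proteins and are switched on through the response element. IFI27 (chromosome 14, 94577078 to 94583033, GRCh37) was 82.5 in vehicle and 366 in the imatinib population, 4.44-fold higher. In the other libraries IFI27 was 12.6 under nilotinib, 113 under GNF-2, 18.0 in Clone 3, 2.22 in Clone 1, 197 in Clone 2 and 1957 in Clone 4. The spread of IFI27 over those 6 libraries was thus wider than its difference here. IFI44L was 7.35 and 16.2, and the double-stranded RNA sensor IFIH1 was 35.9 and 63.3. OAS1 and OAS2, which make the signal that activates RNase L, were 21.9 and 41.0, and 24.9 and 46.9. The ubiquitin-like protein gene ISG15 was 87.0 and 148. UBA7, which encodes the activating enzyme for ISG15, was 11.5 and 20.5, and USP18, which removes it, was 11.9 and 21.7. The UBA7 value in the imatinib population was above all 6 other libraries, whose highest was 15.6. Members whose promoter held the response element had a median difference of 0.50 (n = 23), and induced genes with a promoter without it 0.30 (n = 8).

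Upstream of these genes the picture differed by role. All 4 interferon receptor genes among the members were lower, IFNGR1 at 32.3 and 16.4, IFNAR1 at 22.2 and 16.0, IFNAR2 at 38.4 and 30.5 and IFNGR2 at 65.7 and 59.4. Of 9 signalling genes, 7 were higher. IRF7, the factor that amplifies the response, was 35.4 and 54.1. IRF9 differed little, at 25.1 and 27.6. SOCS1, an inhibitor of this pathway as well as a STAT5 target, was the signalling gene furthest on the lower side. Class I antigen presentation, which interferon also raises, was higher for 12 of 14 members, with a median of 0.18. HLA-E was 260 and 426 and the immunoproteasome subunit PSMB9 was 36.7 and 58.3. HLA-B was 363 and 278, and reads of HLA genes can be split among near-identical copies. None of 7 class II genes reached the floor.

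**Figure D3:**
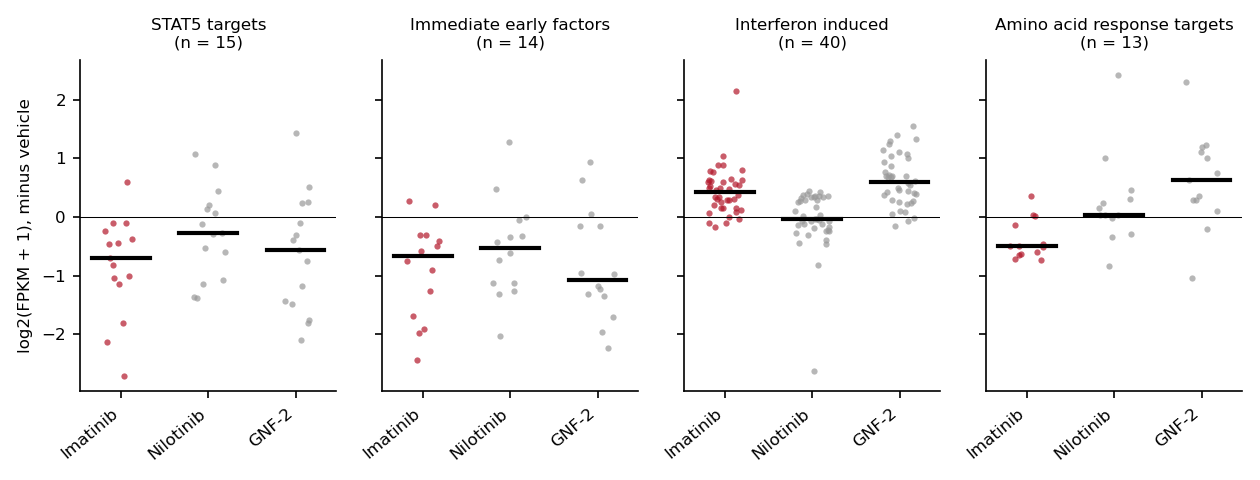
Log2(FPKM + 1) minus vehicle in the imatinib (red), nilotinib and GNF-2 (gray) populations for members of 4 lists; each point is a gene and black bars are medians. All 3 columns share the 1 vehicle library; for amino acid response targets the imatinib median is -0.50 and the GNF-2 median 0.63.

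Genes of the amino acid response stood lower in the imatinib population for 24 of 29 members, with a median of -0.28. ATF4 drives this response when amino acids run short or the endoplasmic reticulum is stressed. ATF4 itself was 444 in vehicle and 429 in the imatinib population, and these were the 2 lowest of the 8 libraries. Its partner CEBPB was 17.5 and 9.75, and DDIT3, which encodes CHOP, was 26.3 and 20.1. Of 13 targets, 10 were lower, with a median of -0.50. Asparagine synthetase (ASNS) was 58.9 and 38.5, the serine synthesis enzymes PHGDH and PSAT1 were 129 and 82.9, and 87.3 and 63.0. SLC3A2 and SLC7A5, the chains of a large neutral amino acid transporter, were 140 and 83.8, and 171 and 120. CHAC1, which degrades glutathione, went the other way at 5.93 and 7.91. Of 12 tRNA synthetases, 10 were lower, WARS the furthest at 28.95 and 16.5.

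The other resistant populations are compared with the same vehicle library, so their values are given side by side and are not independent of those above. For the 13 amino acid response targets the median against vehicle was -0.50 under imatinib, 0.03 under nilotinib and 0.63 under GNF-2. TRIB3, a pseudokinase gene induced by ATF4 and CHOP, was 25.99 FPKM in vehicle, 18.1 under imatinib, 36.1 under nilotinib and 62.4 under GNF-2. TRIB3 in the imatinib population was the lowest of the 8 libraries. For interferon-induced genes the 3 medians were 0.42, -0.04 and 0.59, for STAT5 targets -0.70, -0.28 and -0.56, and for immediate early factors -0.67, -0.53 and -1.08.

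Sterol and fatty acid genes were higher for 33 of 40 members, with a median of 0.28. SREBF1 and SREBF2 encode the factors that switch on these pathways and were 31.4 and 41.0, and 87.5 and 110. SCAP, their escort protein gene, was 24.4 and 31.9, and INSIG2, which holds them in the endoplasmic reticulum, was 60.8 and 39.5. In sterol synthesis 16 of 20 were higher. SQLE, squalene epoxidase, was 116 and 187. All 8 fatty acid synthesis genes were higher. FASN, fatty acid synthase, was 31.6 and 65.0, and its vehicle value was below the range of the others, 50.4 to 117. ACACA, which makes the substrate of FASN, was 9.62 and 15.3. Cholesterol efflux genes, which answer to the liver X receptor rather than to SREBP, were on the same side, ABCG1 at 20.3 and 41.2 and ABCA1 at 7.66 and 15.5.

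Cell division genes were lower by small and even amounts. Of 26 mitosis genes 25 were lower, with a median of -0.27, and of 20 replication genes 19 were lower, with a median of -0.27. UBE2C, a ubiquitin enzyme of mitotic exit, was 86.0 in vehicle and 41.7 in the imatinib population, and was the only gene of either role at least 2-fold apart. The mitotic kinase gene CDK1 was 139 and 91.8, above the highest of the other libraries (72.5) in both. RRM2, a ribonucleotide reductase subunit, was 66.1 and 42.5, and PCNA, the replication clamp, was 80.5 and 55.9. Against the shared vehicle library the median of the mitosis genes was -0.27 under imatinib, -0.55 under nilotinib and -0.63 under GNF-2. The cell cycle inhibitors were split. CDKN2A, whose products are p16 and ARF, was 3.23 and 10.8, 3.35-fold higher. CDKN1A, which encodes p21, was 55.6 and 21.0, and CDKN2D was 47.9 and 26.7. CDKN1B, which encodes p27, was 74.4 and 83.8. All 6 replication-dependent histone genes above the floor were higher, with a median of 0.51. With the floor set on the other 6 libraries 5 of 5 were higher, with a median of 0.50. HIST1H2AC was the furthest at 4.66 and 9.91, and passed the floor only through the imatinib library. Such histone messages mostly lack a poly(A) tail, and 12 of 18 histone genes in the list were under the floor.

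Ribosome genes were higher by small and even amounts. Of 75 cytosolic ribosomal protein genes 71 were higher, with a median of 0.20 and an SD of 0.10. Quantile normalization lowered that median to 0.11. All 20 members of the list of nucleolar factors, which also takes in ODC1, were higher, with a median of 0.17. ODC1, a MYC target that starts polyamine synthesis, was 48.3 and 72.5, and the RNA polymerase I subunit gene POLR1B was 7.05 and 10.3. In the MYC network, MAX was 35.8 and 49.0, and the antagonist MXD1 was 23.7 and 17.5. Respiratory chain subunits were higher for 18 of 26, with a median of 0.08, near that of all members.

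Glucose and hypoxia genes were lower for 28 of 36 members, with a median of -0.19. The glucose transporter genes SLC2A3 and SLC2A1 were 373 and 131, and 239 and 144. SLC2A14, a near-identical neighbour of SLC2A3, was 13.5 and 5.03, and reads may have been split between them. PFKFB3, which makes the activator of glycolysis, was 111 and 60.6, while the glycolytic enzyme GAPDH was 9445 and 9490. Of 13 hypoxia-induced genes 11 were lower. CA9, an acid-regulating enzyme, was 93.8 and 23.4, ADM, the gene of adrenomedullin, 108 and 34.5, and VEGFA 228 and 108. HIF1A, whose protein rather than RNA is the regulated step, was 45.8 and 41.8. The medians of the 13 hypoxia-induced genes against the shared vehicle library were -0.39 under imatinib, -0.89 under nilotinib and -1.33 under GNF-2.

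**Figure D4:**
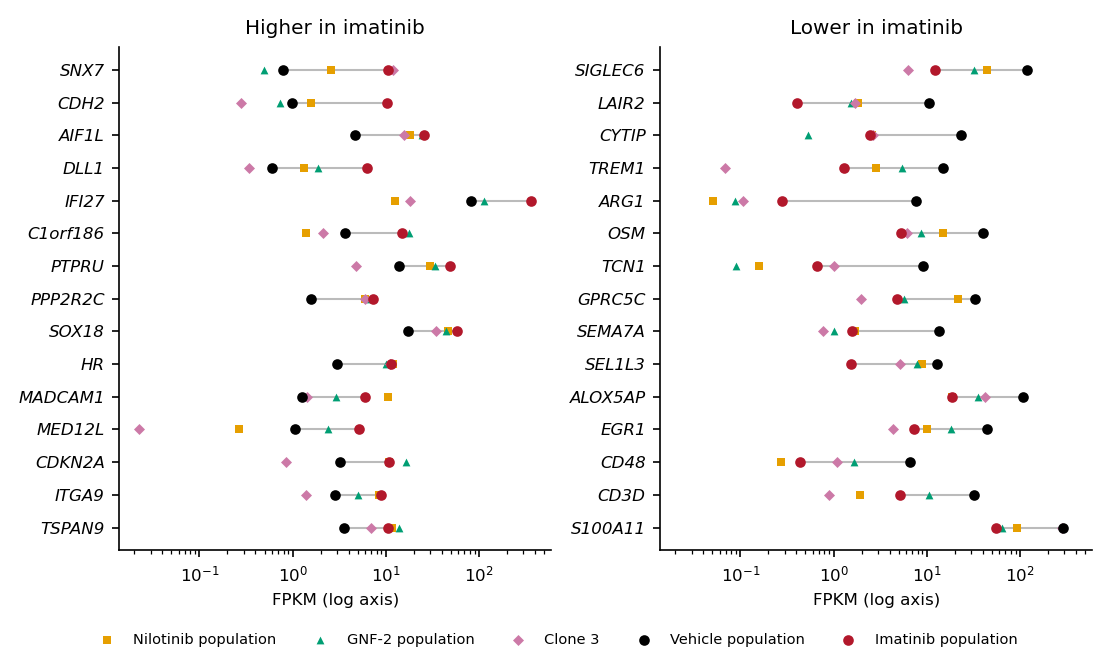
FPKM on a log axis (x) of the 15 protein-coding members furthest higher (left) and the 15 furthest lower (right) in the imatinib population on log2(FPKM + 1) among those above 0 in both libraries (y, by gene). Black points are vehicle and red points the imatinib population, joined by a line; squares, triangles and diamonds are the nilotinib population, the GNF-2 population and Clone 3. For the right-hand genes the vehicle point lies furthest right of the 5 in every row.

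The single genes furthest on the higher side were of several kinds. Of the 15 furthest, only IFI27, PTPRU and SOX18 reached 5 FPKM in vehicle. The rest passed the floor only through the imatinib library, where they were high. SNX7, a sorting nexin gene, was 0.785 in vehicle and 10.5 in the imatinib population. SNX7 was 12.04 in Clone 3 and 8.16 in Clone 2, and 0.498 to 2.57 in the other 4 libraries. CDH2, the gene of N-cadherin, was 0.989 and 10.3, against 1.59 or less in 5 of the others and 10.6 in Clone 4. DLL1, a Notch ligand gene, was 0.602 and 6.27, above the 0.0190 to 1.88 of all 6 others. Of 5 Notch receptors and modifiers all were higher, by 0.14 to 0.39, while the 2 Notch targets above the floor were on opposite sides, HES1 at 6.34 and 2.07 and NRARP at 4.33 and 7.11. AIF1L, an actin-bundling protein gene that lies close to ABL1 on chromosome 9, was 4.64 and 26.02. PTPRU, a receptor phosphatase, was 13.99 and 49.4, and SOX18, a vascular transcription factor, 17.5 and 57.8. SOX18 in vehicle was below all 6 other libraries (24.3 to 58.4), as was the corepressor gene HR, at 2.98 in vehicle, 11.4 in the imatinib population and 5.04 to 13.6 elsewhere. ITGA9 and MADCAM1, an integrin chain and an integrin ligand, were 2.84 and 8.95, and 1.27 and 6.02. Also among the 15 were C1orf186, PPP2R2C, MED12L, TSPAN9, IFI27 and CDKN2A, with 3.00-fold to 4.85-fold differences in FPKM.

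MT2A and MT1X encode metallothioneins, small proteins that bind zinc and copper, and were named after their values were seen. MT2A was 799 in vehicle and 1657 in the imatinib population, and its neighbour MT1X on chromosome 16 was 470 and 996. Both imatinib values were above all 6 other libraries, which reached 917 and 576 in the GNF-2 population and were 43.1 to 179 and 21.5 to 95.9 in the 4 clones. Metallothionein genes are close copies of each other, and reads may be shared among them.

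The genes furthest on the lower side were also of several kinds. Of the 15 furthest, only SIGLEC6, OSM, ALOX5AP, EGR1, CD3D and S100A11 reached 5 FPKM in the imatinib library. The rest passed the floor only through vehicle, where they were high. SIGLEC6, a sialic acid-binding receptor (chromosome 19, 52022783 to 52035110), was 118 in vehicle and 12.3 in the imatinib population, 9.58-fold lower, with 2.93 to 82.9 elsewhere. LAIR2, a soluble collagen receptor, was 10.5 and 0.409, and TREM1, an activating receptor of neutrophils and monocytes, was 14.99 and 1.31. Arginase 1 (ARG1) was 7.67 and 0.280, and TCN1, a vitamin B12-binding granule protein, was 9.09 and 0.673. ALOX5AP, which hands arachidonic acid to 5-lipoxygenase, was 107 and 18.6, and 0.508 to 42.8 elsewhere. For each of these genes vehicle was the highest library of the 8. GPRC5C and SEL1L3 did not share that order. GPRC5C was 32.8 and 4.85 but 37.2 in Clone 1 and 46.3 in Clone 2, and SEL1L3 was 13.1 and 1.53 but 22.8 in Clone 1 and 15.3 in Clone 4.

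Myeloid receptors were lower for 13 of 15 members, with a median of -0.47, or for 11 of 13 when the floor was set on the other 6 libraries. CD38 was 18.1 and 3.95, CD4 24.3 and 5.84, and IL1RAP, a receptor chain found on leukemic stem cells, 46.0 and 20.3. All 8 granule genes above the floor were lower, with a median of -0.66. Of these lists some members passed the floor only through the vehicle library, and with the floor on the other 6 libraries 6 of 6 granule genes were lower. Cathepsin G (CTSG) was 36.5 and 7.35, the granule proteoglycan serglycin (SRGN) 335 and 205, and HDC 684 and 455. PRG2, eosinophil major basic protein, was 59.3 and 34.5 and was listed at 0 in all 6 other libraries. A value of exactly 0 can be a failed estimate, here and for SPI1 below. SPI1, the master factor of myeloid cells, was 29.9 in vehicle, 7.50 under imatinib, 18.2 under nilotinib, 12.003 under GNF-2, 14.7 and 15.8 in Clones 1 and 2, and listed at 0 in Clones 3 and 4. Other blood factors were split, CEBPA at 4.93 and 11.3 and GFI1B, a factor of erythroid and megakaryocyte cells, at 69.6 and 140. GFI1, its myeloid relative, was 14.6 and 6.08. MYB had no value in the imatinib library and IKZF1 none in vehicle. CTSG made up most of the difference in the neutrophil and monocyte marker sum. The part of cell composition in these differences was not tested. In a bulk library, fewer cells of a type and less RNA per cell cannot be told apart.

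A T cell gene was among the 15 on the lower side. CD3D, a chain of the T cell receptor complex, was 32.0 in vehicle, 5.23 in the imatinib population and 0 to 12.4 elsewhere. The partner chains were near 0 in both libraries, CD3E at 0.297 and 0.0200 and CD3G at 0.0566 and 0. In the region of the T cell receptor alpha and delta genes on chromosome 14 (22886527 to 22934912, GRCh37), 3 neighbouring members known only by transcript identifiers were also at least 2-fold lower. The most abundant of them, uc001wdx, was 55.2 and 11.5, and at most 5.41 elsewhere.

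Adhesion and homing receptors were lower for 12 of 17 members, with a median of -0.34, or for 10 of 14 with a median of -0.21 when the floor was set on the other 6 libraries. The chemokine receptor CXCR4, which holds blood progenitors in the marrow, was 53.4 and 15.6. The intercellular adhesion molecules ICAM1 and ICAM3 were 13.5 and 2.52, and 51.5 and 15.6, and SELPLG, the ligand of selectins, was 33.8 and 10.6. CYTIP, which detaches integrins, was 23.6 and 2.47, and SEMA7A, a membrane-anchored semaphorin, 13.7 and 1.59. CD44, the hyaluronan receptor, was on the other side at 132 and 194, as was CDH2. S100, annexin and cytoskeleton genes were lower for 22 of 25, with a median of -0.34. The calcium-binding proteins S100A11 and S100A6 were 292 and 55.7, and 144 and 36.9. Clone 3 had 284 of S100A11 and 24.4 of S100A6, so there only S100A6, of these neighbours on chromosome 1, was near its imatinib value. Vimentin (VIM) was 966 and 481, and thymosin beta 4 (TMSB4X), which binds free actin, was 2506 and 1183. TMSB4X was 939 to 1335 in the other 6 libraries.

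Genes of cell death were split. BCL2L11, which encodes the BH3 protein BIM that imatinib normally induces, was 11.03 and 3.89, with 3.45 to 6.35 in the other 6 libraries. BIK, another BH3 gene, was 2.46 and 5.64, and these were the 2 lowest values of the 8 libraries. The survival gene BCL2A1 was 22.6 and 6.74, while MCL1 was 132 and 122, and BCL2L1, which encodes BCL-XL and is a STAT5 target, was 26.6 and 24.7. Among p53 targets 6 of 8 were lower, against 42.8% of all members, with a median of -0.17, or -0.06 at a floor of 1 FPKM. TNFRSF10B, a death receptor gene, was the furthest at 7.84 and 1.42. Of 16 genes of drug transport and metabolism 3 reached the floor. They were the exporters ABCC1 at 30.4 and 33.7 and ABCC4 at 6.69 and 8.49, and the enzyme gene CYP1B1 at 45.3 and 42.0. The exporters ABCB1 and ABCG2 were under the floor. Of 26 other tyrosine kinases 9 reached it, too few to set their 0 calls apart from the 3.1% of all members at least 2-fold apart. LYN, an SRC family kinase that can stand in for BCR-ABL, was 64.7 and 65.7, and the insulin-like growth factor receptor gene IGF1R, the furthest apart, was 7.36 and 10.7.

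Cytosolic heat shock genes were lower for 7 of 12, against 42.8% of all members, and ER chaperones higher for 9 of 12, against 57.2%. HSPA1A, a member of the HSP70 family, was 19.2 and 6.73, and its reads may be shared with the near-identical HSPA1B beside it. Its partner DNAJB1 was 198 and 103. HSPA5, the main ER chaperone, was 117 and 156. Lysosome genes were lower for 13 of 17, with a median of -0.21, CTSS at 9.07 and 5.66 and CTSB at 221 and 163, with CTSH on the other side at 10.3 and 21.8. TFEB, a factor that drives lysosome genes, was 8.65 and 2.90.

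Positions along the genome were not used to choose the members. Chromosome medians ran from -0.01 on chromosome X to 0.12 on chromosome 22. In windows of 25 neighbouring members, the highest medians of 8727 windows lay on chromosome 9 just beyond ABL1, with 0.33 between 134378288 and 136933655. The lowest lay on chromosome 12 between 6728000 and 8043744, with -0.24, a region that holds SLC2A3's neighbour SLC2A14 and the glycolytic genes TPI1 and ENO2. TPI1 was 842 and 608, and ENO2 498 and 329.

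The segments bounded by ABL1 and BCR were then compared, a choice made after the windows were seen. As background, the Philadelphia chromosome joins chromosome 22 up to BCR with chromosome 9 from ABL1 onward, so these segments are the ones it carries. From ABL1 to the end of chromosome 9, 60 of 79 members (75.9%) were higher in the imatinib population, with a median of 0.20, against 159 of 281 (56.6%) and 0.05 before ABL1. From the start of chromosome 22 to BCR, 34 of 47 (72.3%) were higher, with a median of 0.16, against 117 of 184 (63.6%) and 0.11 after BCR. On all other chromosomes 56.9% were higher, with a median of 0.04. Each gene was also set against its own median over the 8 libraries, and each library centred. On that scale the segment of chromosome 9 had a median of -0.19 in vehicle, -0.06 under imatinib, -0.03 under nilotinib, 0.03 under GNF-2, 0.02 in Clone 3, 0.06 in Clone 1, 0.02 in Clone 2 and 0.20 in Clone 4. The segment of chromosome 22 had -0.22 in vehicle, -0.06 under imatinib, between -0.05 and 0.04 in the next 5 libraries and 0.17 in Clone 4. Vehicle was thus the lowest and Clone 4 the highest library for both segments. DNA copy number was not measured in these files, and its part was not tested. Neighbouring genes share regulation and are not replicates.

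**Figure D5:**
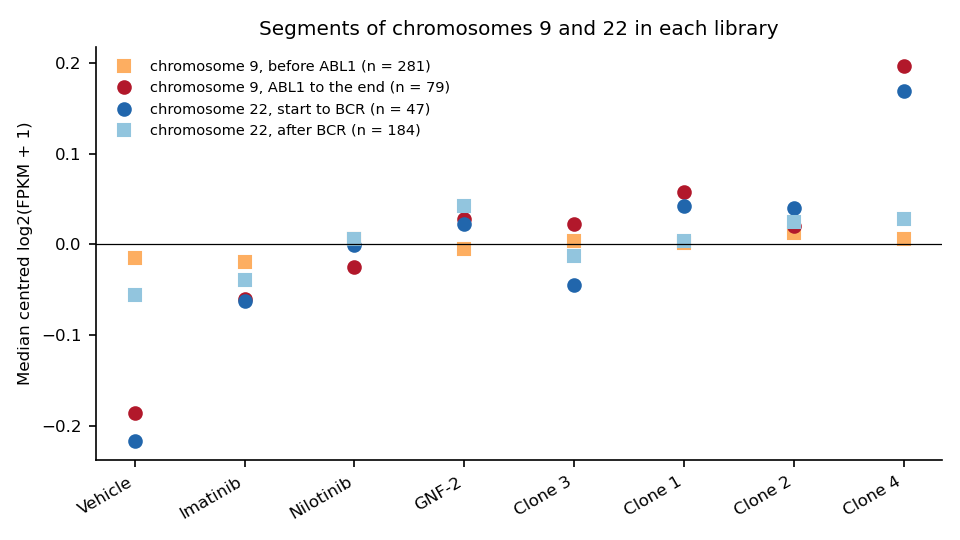
Median over genes of log2(FPKM + 1), centred on each gene's median over 8 libraries and on each library's median (y), for segments of chromosomes 9 and 22 on either side of ABL1 and BCR, by library (x). Circles are the segments from ABL1 onward and up to BCR, squares the rest of each chromosome; the circles run from -0.22 in vehicle to 0.20 in Clone 4, while the squares stay between -0.06 and 0.04.

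The 2-fold calls were set beside the other 6 libraries, as a description since the vehicle value helped choose them. Of the 201 lower genes, 110 (54.7%) had a vehicle value above all 6 others, against 22.3% of all members, and 33 (16.4%) an imatinib value below all 6, against 15.3%. Of the 87 higher genes, 26 (29.9%) had an imatinib value above all 6, against 21.6% of all members, and 24 (27.6%) a vehicle value below all 6, against 21.5%. The lower calls thus lay more often at high values of the vehicle library than at low values of the imatinib library. Clone 3 and the other clones share no library with the comparison, but Clone 4, on the other side of this contrast, is also labelled as resistant to imatinib. Against the mean of Clones 1, 2 and 4, Clone 3 was higher for 36 of the 87 higher genes (41.4%, against 45.4% of all members) and lower for 87 of the 201 lower genes (43.3%, against 54.3%). The nilotinib population against the GNF-2 population, which uses neither library, was higher for 33 of the 87 (37.9%, against 46.2% of all members) and lower for 76 of the 201 (37.8%, against 53.4%). None of these shares exceeded that of all members. Both contrasts set resistant libraries against each other, with no untreated library. They therefore cannot show whether the calls against vehicle would recur.

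Some calls rest on values of exactly 0. Of the 288 genes, 20 were listed at 0 in vehicle and 20 in the imatinib library, and 16 of these 40 span under 300 bases. Furthest among them were MIR4754, SERF2-C15ORF63 and DDT on the higher side, and uc010rrn, SCARNA27 and SNORA27 on the lower side. DDT, a cytokine-like enzyme with a close neighbour copy, was listed at 0 in vehicle, at 121 in the imatinib population, and at 0 in 3 of the other 6 libraries and 73.1 to 108 in the rest. A value of 0 in such a gene can be a failed estimate, so no fold is given. Without these 40 entries, 67 were higher and 181 lower.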

How the data were processed

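RNA was sequenced from 8 KCL-22 libraries, of which the vehicle and imatinib libraries were compared. The authors deposited 1 table of FPKM per gene. TopHat 1.3, Cufflinks 1.3 and GRCh37 are named, per the submitters' processing notes. The sources used here do not say whether strand was used, so overlapping genes and near-identical copies are uncertain. FPKM is scaled to each library's total, so a few abundant genes can shift all others.

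Differences were computed as log2(FPKM + 1), imatinib minus vehicle, over entries reaching 5 FPKM in either library, with Python 3.11.15, numpy 2.4.6, pandas 2.3.3 and matplotlib 3.10.9. The calculation was tested on simulated data. The log scale understates folds of low genes, and folds printed are ratios of FPKM. With 1 library a side no test was run. The members and gene lists were chosen with earlier results of these data known. Named genes are ABL1, BCR, the 15 protein-coding genes furthest each way, the 3 furthest each way among those listed at 0 in 1 library, and from each list up to 6 members by size with its regulators. MT2A, MT1X and further genes were added with their values known. Alternatives were the pseudocount, the floor, the fold, rescaling by the median ratio and quantile normalization. Restriction to protein-coding genes, removal of length and GC trends and the segments of chromosomes 9 and 22 were chosen after seeing the data. Promoters were matched to genes by symbol.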

Additional observations from a re-analysis of the deposited data

How the results depend on the processing

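The count of genes at least 2-fold apart depended on the pseudocount, the floor and the fold. A pseudocount of 5 FPKM gave 138 genes, 35 higher and 103 lower. A floor of 1 FPKM gave 446, with 147 higher, and a floor of 10 gave 183, with 50 higher and 133 lower. At 1.5-fold there were 792, 322 higher and 470 lower, and at 3-fold 114, 32 higher and 82 lower. These follow from the settings' construction. Rescaling by the median ratio, which shifts all genes by 0.05 on the log2 scale, gave 68 higher and 213 lower. The floor on the other 6 libraries, which uses neither compared library, gave 209 genes, 71 higher and 138 lower. Removing length and GC trends gave 65 higher and 203 lower, and left medians of 0.13 and 0.09 in the segments beyond ABL1 and up to BCR. Medians of the 32 gene lists with members moved by less than 1 SD of their members under each alternative run. Small medians near 0, such as the BCR-ABL adaptors with the fusion genes (0.02 at a floor of 10) and the chaperones (-0.02 rescaled), changed sign. The leukotriene and prostaglandin list, whose members had an SD of 0.895, moved further. Its median went from -0.002 to -0.46 at a floor of 1 and 0.18 at a floor of 10. Medians that moved by over 1.5 times included those of ribosomal proteins (0.11 after quantile normalization) and p53 targets (-0.06 at a floor of 1). With the floor on the other libraries the BCL2 family went from -0.10 to -0.07 and lymphoid genes from -0.69 to -0.38. Without length and GC trends NF-kB genes went from -0.12 to -0.19, the respiratory chain from 0.08 to 0.03 and megakaryocyte genes from 0.10 to 0.05. At a floor of 10, drug transport and metabolism went from 0.14 to 0.02. At that floor all adhesion and homing genes, with semaphorins and plexins, went from -0.03 to -0.14. No paired analysis was possible because each group has 1 library, and for the same reason no library could be left out. Depth was estimated from the values, and short or low genes are the least precise.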
